A study of Homo sapiens with 6 samples.

Results

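The genes described here copy the genome and start S phase: 43 genes for origin licensing, the replicative helicase, DNA polymerases, the sliding clamp, nucleotide supply and the G1/S switch. They were taken as the probe sets whose single gene symbol in the platform annotation is 1 of these names, which gave 81 probe sets of the 54675 on the array and 43 of 19775 genes with such a probe set. The cells were MDA-MB-231, a human line long grown in culture from a breast cancer and classed as basal with mesenchymal traits. The GFP control group was MDA-MB-231 transduced with a lentivirus for eGFP alone, and the other group with a lentivirus for GATA3, a transcription factor of luminal mammary cells, and eGFP. Both groups were sorted for GFP, plated at equal cell number and lysed after an equal time in culture, so every sample carries a GFP lentivirus. Each group had 3 arrays, and the promoter of the vector and the number of clones are not given in the sources used here. Nothing says that the triplicates were separate cultures, so p-values measure only the spread among these arrays, which may be technical.

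DNA replication is prepared in G1, when the origin recognition complex (ORC), CDC6 and CDT1 load the ring of MCM2 to MCM7 onto DNA. At the start of S phase CDC45 and the GINS complex join the ring and turn it into an active helicase, primase and DNA polymerase alpha lay the first primers, and polymerases epsilon and delta extend them on the PCNA clamp. Many of these genes are transcribed together by E2F factors, which cyclin E and its kinase release from the retinoblastoma protein family.

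Because E2F factors are a known regulator of this group, the promoters of the members were read from RefSeq tables (GRCh38.p14), each window holding 250 bases before and 50 bases after a start site. Windows were there for 37 of the 43 members, and the 6 others were MCM4, MCM5, GINS4, RPA2, RPA3 and CCNE2. The E2F motif was searched as the words TTTCCCGC, TTTCGCGC, TTTGCCGC and TTTGGCGC on both strands, so that palindromic runs can match on both. Of the 37 members, 21 (56.8%) held a match in at least 1 window, against 1090 of 27305 genes (3.99%) overall and 617 of 8944 tested genes (6.90%). The shorter CCAAT motif, searched on both strands, was held by 22 of the 37 (59.5%) and by 39.7% of all genes. Among members with a window, the E2F words were in 2 of 3 that were higher in the arrays labelled GATA3, in 4 of 9 that were lower and in 15 of 25 that did not pass the test described below. These are descriptions of letters, with no test.

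The following windows are shown, 5′ to 3′ on the gene's strand, with E2F words in capitals. CCNE1 had the largest rise past the threshold, MCM10 the largest fall past the threshold among members with a window, and E2F1 stands for the factor itself. The CCNE1 window lies at chr19:29811741-29812040 (plus strand), the MCM10 window at chr10:13161308-13161607 (plus strand) and the E2F1 window at chr20:33686336-33686635 (minus strand).
CCNE1: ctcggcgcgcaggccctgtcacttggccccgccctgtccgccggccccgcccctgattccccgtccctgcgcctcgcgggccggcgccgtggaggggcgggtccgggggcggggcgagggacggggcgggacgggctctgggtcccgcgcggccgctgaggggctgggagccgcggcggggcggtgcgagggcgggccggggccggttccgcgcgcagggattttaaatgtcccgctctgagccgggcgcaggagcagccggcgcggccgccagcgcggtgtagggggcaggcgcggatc
MCM10: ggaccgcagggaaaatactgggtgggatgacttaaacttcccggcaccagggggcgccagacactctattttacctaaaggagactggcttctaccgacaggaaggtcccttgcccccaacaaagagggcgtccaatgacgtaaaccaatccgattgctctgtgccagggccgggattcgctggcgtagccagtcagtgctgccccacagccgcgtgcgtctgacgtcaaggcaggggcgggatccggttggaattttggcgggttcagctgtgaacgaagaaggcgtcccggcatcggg
E2F1: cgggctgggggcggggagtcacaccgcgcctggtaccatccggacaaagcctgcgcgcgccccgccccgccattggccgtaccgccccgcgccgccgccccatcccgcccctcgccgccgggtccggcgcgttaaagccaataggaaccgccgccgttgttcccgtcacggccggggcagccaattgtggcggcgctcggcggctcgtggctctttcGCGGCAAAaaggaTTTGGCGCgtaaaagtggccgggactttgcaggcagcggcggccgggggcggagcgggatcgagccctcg

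The E2F1 window held 2 words, which begin 33 and 20 bases before the start site, and the CCNE1 and MCM10 windows held none, which says only that these letters are not in those windows. Shorter stretches of 60 bases show the words in other members: E2F2 and E2F3 as the 2 other E2F genes, and CDC6, POLE2 and MCM7, chosen after their values were seen, as members that rose (CDC6 and POLE2) or fell (MCM7). They lie at chr1:23531242-23531301 (E2F2, minus strand), chr6:20401800-20401859 (E2F3, plus strand), chr17:40287860-40287919 (CDC6, plus strand), chr14:49688186-49688245 (POLE2, minus strand) and chr7:100101373-100101432 (MCM7, minus strand).
E2F2: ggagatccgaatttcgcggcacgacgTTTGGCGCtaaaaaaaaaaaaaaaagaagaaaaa
E2F3: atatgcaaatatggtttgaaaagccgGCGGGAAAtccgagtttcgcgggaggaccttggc
CDC6: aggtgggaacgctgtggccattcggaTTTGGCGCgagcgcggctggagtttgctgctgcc
POLE2: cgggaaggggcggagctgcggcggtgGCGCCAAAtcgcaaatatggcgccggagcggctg
MCM7: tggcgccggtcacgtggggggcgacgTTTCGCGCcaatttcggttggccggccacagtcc

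E2F words were thus found in windows of members that were higher, lower or past no threshold. RefSeq lists 3 windows for MCM7 and 2 for E2F3, and in each case 1 of them held any of these words.

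Levels are on the GCRMA scale, taken to be log2, so that 1 unit is a factor of 2, and they are compared only for the same probe set between arrays. Before the members, the labels were checked. The brightest GATA3 probe set (209604_s_at) averaged 9.39 ± 0.06 over the GFP control (SD, n = 3) and 7.73 ± 0.35 over the other group (SD, n = 3). It was thus lower and not higher (limma, adjusted p 0.00238). A dimmer one (209602_s_at) was lower as well, with means of 4.73 in the GFP control and 3.24 in the other group. Whether either can read the introduced sequence is not known here. Every direction below is therefore that of the arrays labelled GATA3. The line's markers VIM, CD44, EGFR, CAV1 and AXL were bright on all 6 arrays (lowest value 11.87) and the endothelial and leukocyte markers with a single-symbol probe set (PECAM1, CDH5, VWF, PTPRC and CD3E) read at most 2.20, while COL1A1 and PDGFRB of the 3 fibroblast markers read 6.38 to 6.92 and DCN at most 2.23. A second COL1A1 probe set (1556499_s_at) averaged 4.07 in the GFP control and 6.94 in the arrays labelled GATA3, and its part in the member results was not tested. PGR stood at the floor of the values and ERBB2 at 9.25 to 9.62. ESR1 read an identical 4.02 on every array but GATA3 replicate 3 (4.45). PDGFRB likewise read an identical 6.39 on GFP control replicates 1 and 2. Whether such repeated values stand for expression is not known here. GATA3 replicate 3 stood apart: it correlated at 0.984 and 0.986 with the other arrays of its group, which correlated at 0.997 with each other, its 75th percentile was 7.78 against 7.97 to 8.04, and its raw file alone belongs to a second date set in the raw-file names. Because that set holds 1 array, date and array cannot be told apart, and results are given without it where it matters.

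All 43 members read over 4 on all 6 arrays, though no detection call was made. Every member had a probe set over 4 in enough arrays to be tested (at least 3 of the 6), the lowest single value among the 43 representative probe sets was 6.42, and none had been selected by being high in 1 group. Where a member had several tested probe sets, the brightest over the 6 arrays stands for it. The groups were compared with limma, and a gene was called where the p adjusted by Benjamini-Hochberg over all 23785 tested probe sets was under 0.05.

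Most members moved little, and those that passed the test were mostly lower in the arrays labelled GATA3. Of the 43, 11 fell (MCM3, MCM4, MCM5, MCM7, MCM10, POLA1, PRIM1, POLD1, FEN1, RRM1 and UHRF1), 3 rose (CDC6, POLE2 and CCNE1) and 29 did not pass. The falls were 1.13-fold to 1.46-fold. Over all 10814 tested genes, 14.5% were called lower and 14.8% higher, against 25.6% and 6.98% of the members. The median log2 change was -0.11 over the members and -0.02 over all tested genes. All 3 arrays labelled GATA3 lay below all 3 GFP control arrays in 16 members and above them in 6, where the same held for 27.2% and 22.2% of all tested genes.

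**Figure D1:**
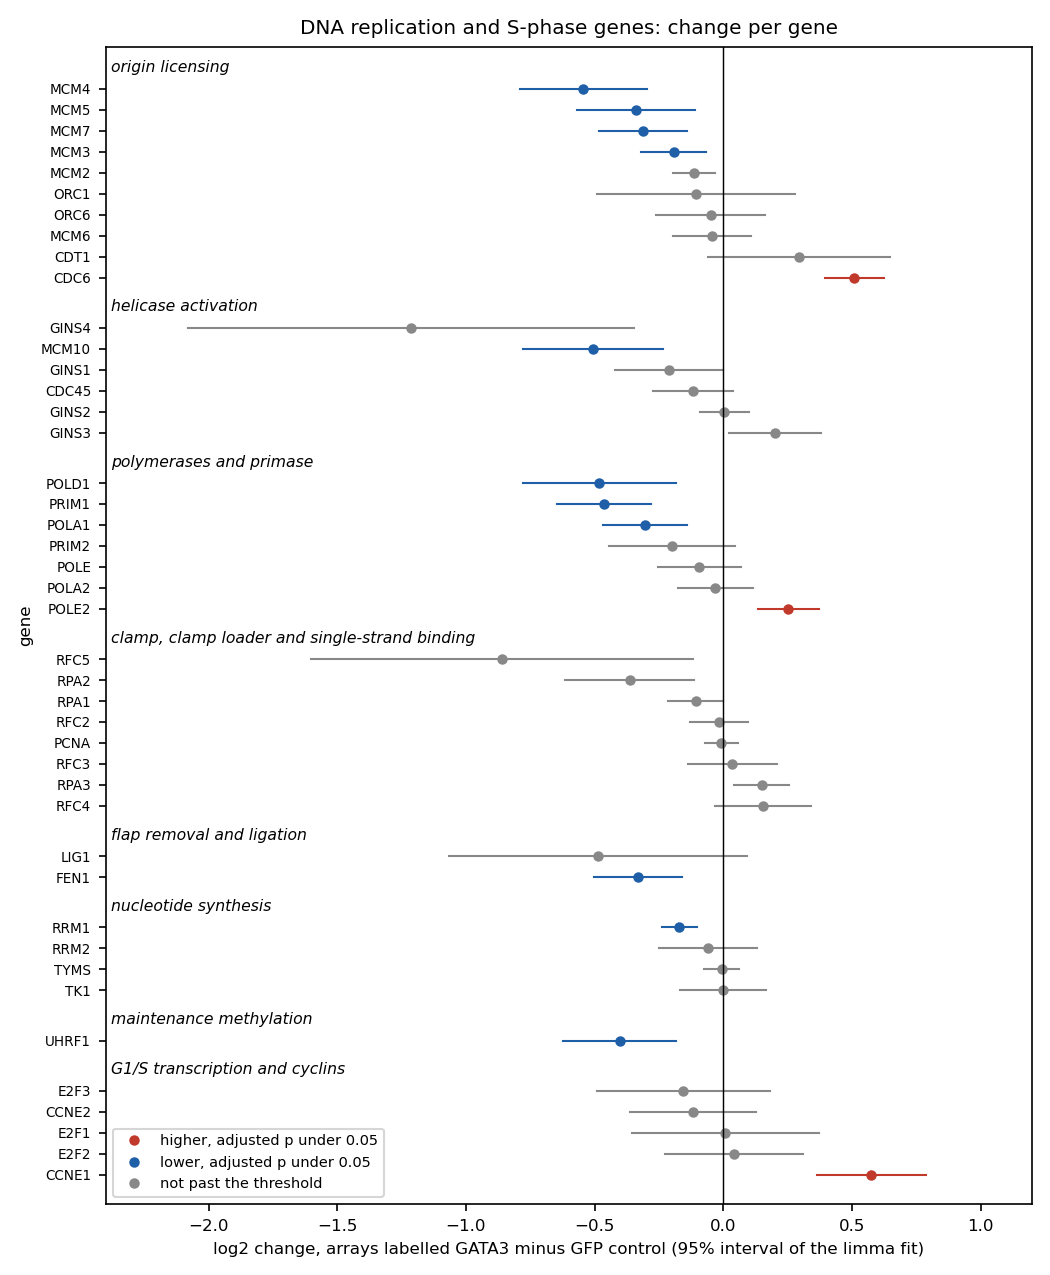
Log2 change of each of the 43 members (x axis, arrays labelled GATA3 minus GFP control, 3 arrays each), grouped by role, with the 95% interval of the limma fit. The 11 members called lower and the 3 called higher are coloured; GINS4 and RFC5 have the lowest estimates (-1.21 and -0.86) and the widest intervals, and did not pass.

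The count of falls depended on which array was dropped. Without GATA3 replicate 3, the array that stood apart, 10 members were lower and 3 higher, beside 16.5% and 19.0% of all genes. In that fit MCM3, MCM5 and MCM7 no longer passed, and GINS4 and RPA2 did. The number lower was 4, 4 and 5 when GFP control replicate 1, 2 or 3 was left out, 9 without GATA3 replicate 1 and 4 without GATA3 replicate 2. In those 5 fits 9.03%, 8.62%, 8.42%, 11.8% and 9.79% of all genes were called lower. The number was 4 with no filter on low values, where 4.57% of all genes were called lower. It was 6, beside 3 higher, with each array centred on its median, where 12.9% of all genes were called lower and 18.7% higher. In each of the 16 alternatives tried none of the 14 changed direction where it was measured. Leaving out an array could not turn a direction, because the groups of these 14 did not overlap. Other filters, variance models and the replicate block leave the change itself as it is. CDC6, PRIM1 and CCNE1 passed in all 16 alternatives. In cell populations a smaller share of cells in S phase and less RNA per cell cannot be told apart.

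Of the 10 origin licensing genes 1 rose and 4 fell. The loading factor CDC6, an ATPase that brings the helicase to the origin, read 11.02, 10.89 and 11.00 in GFP control replicates 1 to 3 and 11.46, 11.50 and 11.48 in GATA3 replicates 1 to 3. All arrays labelled GATA3 were above all controls, a rise of 0.51 (SE 0.05), or 1.42-fold (limma, adjusted p 0.00119). Its second probe set (203968_s_at) had a change of 0.36 and an adjusted p of 0.0656. CDT1, the partner of CDC6 in loading, gave opposite readings: its brighter probe set (228868_x_at) changed by 0.29 (adjusted p 0.188), while the other (209832_s_at) fell by 0.66 (limma, adjusted p 0.0463). That second probe set read 8.85, 8.67 and 8.94 in the GFP control and 8.29, 8.39 and 7.79 in the arrays labelled GATA3. The brighter one read 9.01, 8.74 and 8.94 against 8.97, 9.16 and 9.44. Because the 2 probe sets changed in opposite directions, no direction for CDT1 is given. The ORC subunits ORC1 (-0.11, 95% interval -0.49 to 0.28) and ORC6 (-0.05, -0.26 to 0.16) did not pass.

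The 6 subunits of the MCM ring all had negative changes, and 4 passed. Over all tested genes 5774 of 10814 changes were negative. MCM4 had the largest change, with 11.02, 10.99 and 10.89 in the GFP control and 10.52, 10.53 and 10.21 in the arrays labelled GATA3. It fell by 0.54 (SE 0.10), or 1.46-fold (limma, adjusted p 0.0134), with replicate 3 the lowest. Its 3 other tested probe sets fell as well, by 0.66, 0.62 and 0.89 on the log2 scale, the last (222037_at) from 9.79, 9.86 and 9.92 to 9.00, 8.88 and 9.00. That probe set had an adjusted p of 0.000528, and replicate 3 was not apart there. So all 4 readings of MCM4 agreed in direction, though the brightest missed the threshold without GFP control replicate 1 or 2 (adjusted p 0.0556 and 0.0590).

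MCM7 read 13.22, 13.07 and 12.99 in the GFP control and 12.83, 12.79 and 12.71 in the arrays labelled GATA3. The groups did not overlap, with a change of -0.31 (SE 0.07) and an adjusted p of 0.0254 (limma); its other probe set changed by -0.22 (adjusted p 0.00572). MCM5 read 11.28, 11.10 and 11.11 in the GFP control and 10.97, 10.68 and 10.83 in the arrays labelled GATA3, a change of -0.34 (SE 0.09, adjusted p 0.0461, limma), and -0.37 by its other probe set (adjusted p 0.00709). MCM3 fell by 0.19 (SE 0.05, adjusted p 0.0435), from 12.95, 12.80 and 12.91 to 12.73, 12.72 and 12.63. These were small, separate shifts, near the threshold: MCM3 and MCM5 each passed in 1 of the 6 fits with 1 array left out (MCM3 without GFP control replicate 2, MCM5 without GATA3 replicate 1) and MCM7 in 2 (without GFP control replicate 1 or 3). With median centring MCM3, MCM5 and MCM7 did not pass (adjusted p 0.286, 0.0971 and 0.0731), and with no filter on low values none of the 4 called ring subunits did (adjusted p 0.0586 for MCM4 to 0.157 for MCM5).

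MCM2 and MCM6 complete the ring. MCM2 read 11.60, 11.57 and 11.62 against 11.50, 11.46 and 11.47, a change of -0.12 (95% interval -0.20 to -0.03) with no overlap and an adjusted p of 0.0544, just outside the threshold. MCM6 changed by -0.04 (-0.20 to 0.11). Over the ring's 12 tested probe sets all 12 changes were negative, from -0.89 to -0.04, and 9 passed. Among all tested probe sets 14.0% were called lower and 11.3% higher.

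**Figure D2:**
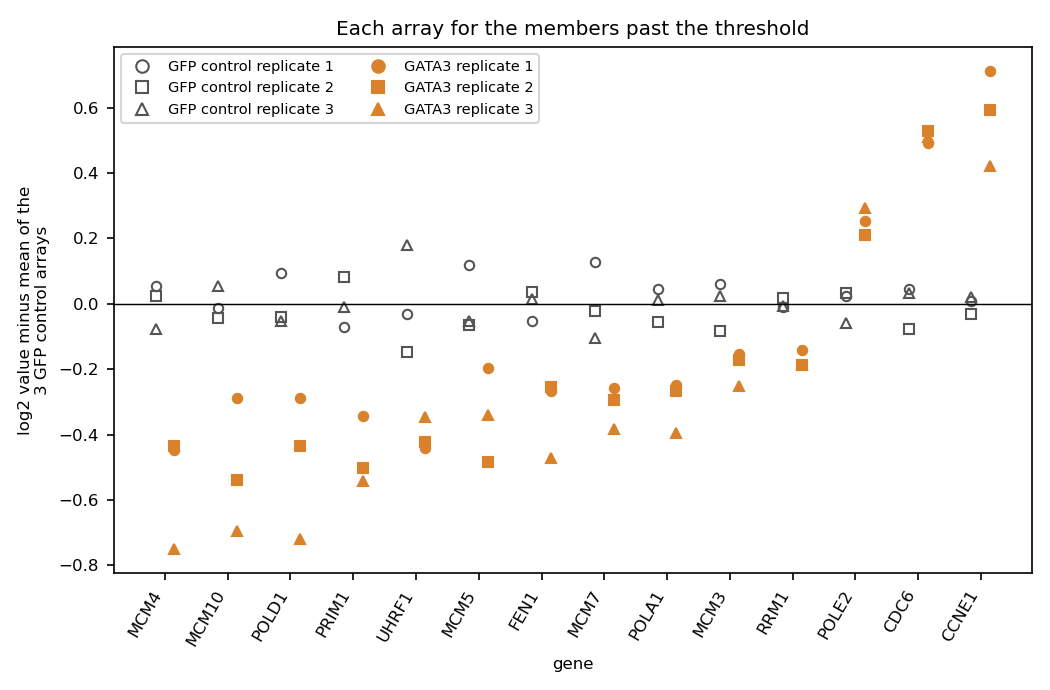
Every array for the 14 members past the threshold, as the log2 value minus the mean of the 3 GFP control arrays (y axis), with 1 marker shape per replicate. No member's groups overlap; GATA3 replicate 3 is the lowest array of its group in 8 of the 11 members that fell.

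GATA3 replicate 3 was the lowest array of its group in 20 of the 43 members (46.5%) and in 56.8% of all tested genes. Its part in the member results was not tested beyond the fits without it.

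Helicase activation gave 1 call. MCM10, which helps CDC45 and GINS engage the ring, read 10.71, 10.67 and 10.77 in the GFP control and 10.43, 10.18 and 10.02 in the arrays labelled GATA3. The fall was 0.51 (SE 0.11), or 1.42-fold (limma, adjusted p 0.0232), with replicate 3 lowest. It passed in 2 of the 6 fits with 1 array left out, and not without any 1 of the GFP control arrays or GATA3 replicate 2 (adjusted p up to 0.0888), nor with no filter (0.0917). Both other probe sets of MCM10 fell too, by 0.37 (adjusted p 0.0246) and 0.59 (adjusted p 0.0389). With all 6 arrays, none of the GINS genes passed in its brightest probe set, and differences between them were not tested. GINS4 had the lowest estimate of all members, -1.21 (95% interval -2.08 to -0.35), with readings of 8.28, 8.41 and 8.55 in the GFP control and 7.74, 7.44 and 6.42 in the arrays labelled GATA3. The groups did not overlap, but the arrays labelled GATA3 spread over more than 1 unit (SD 0.69), and the adjusted p was 0.0552. Without GATA3 replicate 3 the change was -0.82 and passed (adjusted p 0.0133). A dim probe set of GINS4 (235029_at) fell by 0.34 (adjusted p 0.0152), from 4.77 to 4.85 in the GFP control down to 4.39 to 4.53. GINS2, by contrast, had a change of 0.00 (-0.09 to 0.10), and GINS1 (-0.21) and GINS3 (0.20) did not pass. CDC45 changed by -0.12 (-0.27 to 0.04).

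The primer-making enzymes and the polymerases were lower in 3 of 7 members and higher in 1. PRIM1, the catalytic subunit of primase, read 10.23, 10.38 and 10.29 in the GFP control and 9.96, 9.80 and 9.76 in the arrays labelled GATA3. It fell by 0.46 (SE 0.07), or 1.38-fold (limma, adjusted p 0.00839), and passed in every alternative. POLA1, the catalytic subunit of polymerase alpha, fell by 0.30 (SE 0.07, adjusted p 0.0233), from 9.31, 9.21 and 9.27 to 9.01, 9.00 and 8.87. POLA1 passed in 2 of the 6 fits with 1 array left out, and missed the threshold without any 1 of the GFP control arrays or GATA3 replicate 2 (adjusted p up to 0.0834) and with median centring (0.0615). Their partner subunits PRIM2 (-0.20, 95% interval -0.44 to 0.05) and POLA2 (-0.03, -0.18 to 0.11) did not pass.

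POLD1, the catalytic subunit of polymerase delta, read 10.61, 10.48 and 10.46 in the GFP control and 10.23, 10.08 and 9.80 in the arrays labelled GATA3. It fell by 0.48 (SE 0.12), or 1.40-fold (limma, adjusted p 0.0356), with replicate 3 lowest. Leaving out any 1 of the GFP control arrays or GATA3 replicate 2 ended this call (adjusted p up to 0.113), as did no filter on low values (0.132). In polymerase epsilon the catalytic gene POLE changed by -0.09 (-0.26 to 0.07), while the second subunit gene POLE2 rose by 0.25 (SE 0.05, adjusted p 0.0147). POLE2 read 10.40, 10.41 and 10.32 against 10.63, 10.59 and 10.67, with no overlap. The difference in change between subunits was not tested.

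The clamp, the clamp loader and the single-strand binding genes held none of the 14 calls. PCNA, the sliding clamp and a common marker of S phase, read 13.41, 13.46 and 13.46 in the GFP control and 13.43, 13.44 and 13.45 in the arrays labelled GATA3. Its change was -0.01 with a 95% interval of -0.07 to 0.06, the narrowest among the 43 members. The loader genes RFC2 (-0.02, -0.13 to 0.10), RFC3 (0.04, -0.14 to 0.21) and RFC4 (0.15, -0.03 to 0.34) did not pass. RFC5 was unsettled: its brightest probe set (213734_at) read 11.17, 12.11 and 11.99 in the GFP control and 10.53, 10.98 and 11.18 in the arrays labelled GATA3, a change of -0.86 (adjusted p 0.0914), and the 2 others changed by 0.00 and 0.17. The groups overlapped in that probe set, and its SD in the GFP control was 0.51. Of the replication protein A genes, RPA2 (-0.36, adjusted p 0.0504) and RPA3 (0.15, adjusted p 0.0574) lay just outside the threshold in opposite directions and RPA1 changed by -0.11 (-0.21 to 0.00).

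Of the enzymes that finish the lagging strand, FEN1, the flap nuclease, read 12.66, 12.75 and 12.73 in the GFP control and 12.45, 12.46 and 12.24 in the arrays labelled GATA3. It fell by 0.33 (SE 0.07), or 1.26-fold (limma, adjusted p 0.0202), and its other probe set changed by -0.17 (adjusted p 0.112). FEN1 missed the threshold without any 1 of the GFP control arrays (adjusted p up to 0.0804) and with no filter (0.0803). LIG1, the ligase that seals the strand, had a change of -0.49 with an interval of -1.06 to 0.09 and readings of 9.12, 8.94 and 9.10 against 8.90, 8.76 and 8.05. GATA3 replicate 3 was the lowest array, and the groups did not overlap.

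Of the 4 nucleotide synthesis genes 1 passed. TYMS, thymidylate synthase, changed by -0.01 (95% interval -0.07 to 0.06), TK1, thymidine kinase, by 0.00 (-0.17 to 0.16) and RRM2, the S-phase subunit of ribonucleotide reductase, by -0.06 (-0.25 to 0.13). RRM1, the large subunit of that enzyme, passed and read 13.12, 13.15 and 13.13 in the GFP control and 12.99, 12.95 and 12.95 in the arrays labelled GATA3. The shift of -0.17 (SE 0.03, adjusted p 0.00882, limma) was 1.13-fold, small in size but larger than the spread between arrays (SD 0.02 and 0.03, n = 3 each), and the second probe set changed by -0.05 (adjusted p 0.613). With each array centred on its median RRM1 changed by -0.09 (adjusted p 0.402). UHRF1, which brings the maintenance methyltransferase to newly copied DNA, fell from 13.01, 12.90 and 13.22 to 12.60, 12.62 and 12.70, a change of -0.40 (SE 0.09, adjusted p 0.0240), with no overlap. UHRF1 did not pass without GFP control replicate 1 or GATA3 replicate 1 or 2 (adjusted p up to 0.0783), with median centring (0.0653) or with no filter (0.0994).

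Of the 5 G1/S switch genes, cyclin E1 rose and the E2F genes did not pass. CCNE1, which encodes the cyclin that drives entry into S phase, read 9.02, 8.99 and 9.04 in the GFP control and 9.73, 9.61 and 9.44 in the arrays labelled GATA3. It rose by 0.58 (SE 0.08), or 1.49-fold (limma, adjusted p 0.00652), the largest rise among the members. Its paralog CCNE2 read 11.48, 11.65 and 11.73 against 11.49, 11.65 and 11.36, overlapping groups with a change of -0.12 (-0.36 to 0.13). The other tested probe set of CCNE2 had a change of 0.33 (adjusted p 0.141).

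E2F1, an activator of S-phase genes, read 9.24, 9.25 and 9.35 in the GFP control and 9.16, 9.09 and 9.61 in the arrays labelled GATA3, a change of 0.01 (-0.36 to 0.37). A second E2F1 probe set (2028_s_at) read 8.08, 7.88 and 8.18 against 7.70, 7.60 and 7.04, without overlap, and did not pass (change -0.60, adjusted p 0.0803). With the mean of both probe sets the change was -0.30 and passed (adjusted p 0.0256), so the reading of E2F1 depends on the probe set. E2F2 read 7.63, 7.95 and 7.64 against 7.74, 7.79 and 7.82 (change 0.04, -0.23 to 0.31). E2F3 read 10.19, 10.23 and 10.39 against 10.28, 10.23 and 9.83 (change -0.16, -0.49 to 0.18). Both overlapped.

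**Figure D3:**
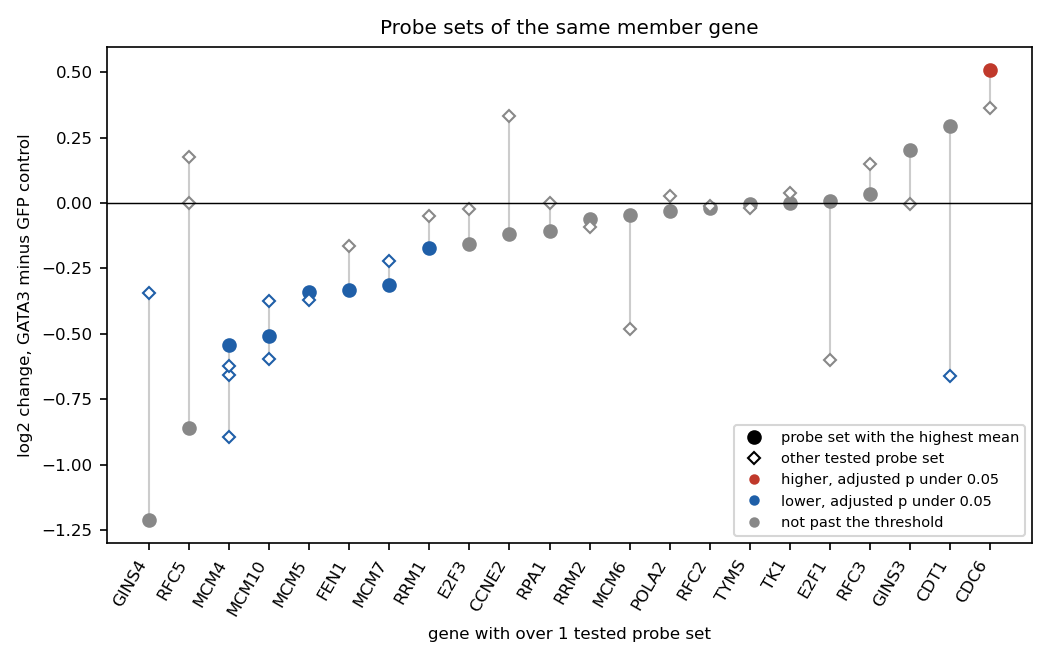
Log2 change (y axis) of every tested probe set of the 22 members that have more than 1, with the brightest as a filled circle and the others as diamonds, coloured by call. The probe sets of MCM4, MCM5, MCM7 and MCM10 all fell, while those of CDT1 and RFC5 spread over 0.96 and 1.04 units on both sides of 0.

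Agreement between probe sets can be read for 22 members with more than 1 tested probe set. In 15 of them all changes had the same sign, and in 7 (CCNE2, CDT1, E2F1, GINS3, POLA2, RFC5 and TK1) they did not. Of the 69 tested probe sets of members, 20 were lower, 3 higher and 46 did not pass. Over all tested probe sets 14.0% were called lower and 11.3% higher. The 20 belonged to 13 genes, with 4 from MCM4 and 3 from MCM10. The 12 probe sets not tested belonged to genes with another tested one and averaged at most 3.56. Among the 29 members that did not pass, 21 changes were negative and 8 positive, where 5774 of all 10814 tested genes had a negative change. Of the 29, 24 had a 95% interval that lay wholly within 0.5 log2 units of no change. The intervals of the other 5, CDT1, GINS4, RFC5, RPA2 and LIG1, reached further. All called falls but those of MCM4 and MCM10 were also smaller than 0.5, so this band does not show the 24 to be unchanged. Among the 24, the interval lay wholly on 1 side of no change for MCM2, GINS1, GINS3 and RPA3. Among the other 5 it did so for GINS4, RFC5 and RPA2, all on the negative side.

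The rest of the pathway was read from 61 further replication and G1/S genes that were tested. Of these 16 fell, 8 rose and 37 did not pass, with a median of -0.11, beside the 14.5% and 14.8% called over all genes. Among partners of origin licensing 3 of 8 rose and none fell. ORC5 rose from 9.97 ± 0.05 to 10.28 ± 0.06 (SD, n = 3), and GMNN, geminin, the inhibitor that blocks CDT1 from relicensing, rose from 12.60 ± 0.03 to 12.82 ± 0.04 (SD, n = 3), with limma adjusted p-values of 0.0120 and 0.00829. Of 7 firing factors 2 fell and 1 rose. These were the kinase gene CDC7 (-0.21) and its activator DBF4 (-0.45, adjusted p 0.00781), and RECQL4 (0.24).

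At the fork 5 of 14 partners fell and 2 rose. CLSPN, claspin of the checkpoint, fell by 0.62 and POLD3 by 0.45 (limma, adjusted p 0.0347 and 0.00346), whereas POLD4, the small subunit of polymerase delta, rose by 0.67 (adjusted p 0.0152) and DSCC1 of the cohesion clamp loader by 0.34. With POLD1 and POLD2 (-0.32) falling too, 3 polymerase delta subunits were lower and 1 higher. None of 6 tested nucleotide supply partners passed. In chromatin assembly 3 of 8 fell and none rose, led by the histone chaperones ASF1B (-0.56, adjusted p 0.00524) and NASP (-0.40, adjusted p 0.00153).

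Among 18 G1/S regulators 6 fell and 2 rose. CDKN1A, which encodes the cyclin-dependent kinase inhibitor p21, had the largest change of this list, from 9.68 ± 0.05 to 10.66 ± 0.15 (SD, n = 3), a rise of 0.98 (SE 0.09) or 1.97-fold (limma, adjusted p 0.00112). MYBL2, a transcription factor of the cell cycle, rose by 0.68 (SE 0.06, adjusted p 0.00101). RBL1, a retinoblastoma family protein, fell by 0.73 (SE 0.17, adjusted p 0.0291), and SKP2, the ubiquitin ligase subunit that targets the inhibitor p27, fell by 0.61 (SE 0.07, adjusted p 0.00287). CDKN1B, the gene of p27, named after its value was seen, fell as well, by 0.57 (adjusted p 0.0129). E2F4 read 6.23 on all 6 arrays in its brightest probe set, an identical value that carries no comparison. Over all 61 further genes, 15 were lower and 11 higher without GATA3 replicate 3, beside 16.5% and 19.0% of all tested genes.

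**Figure D4:**
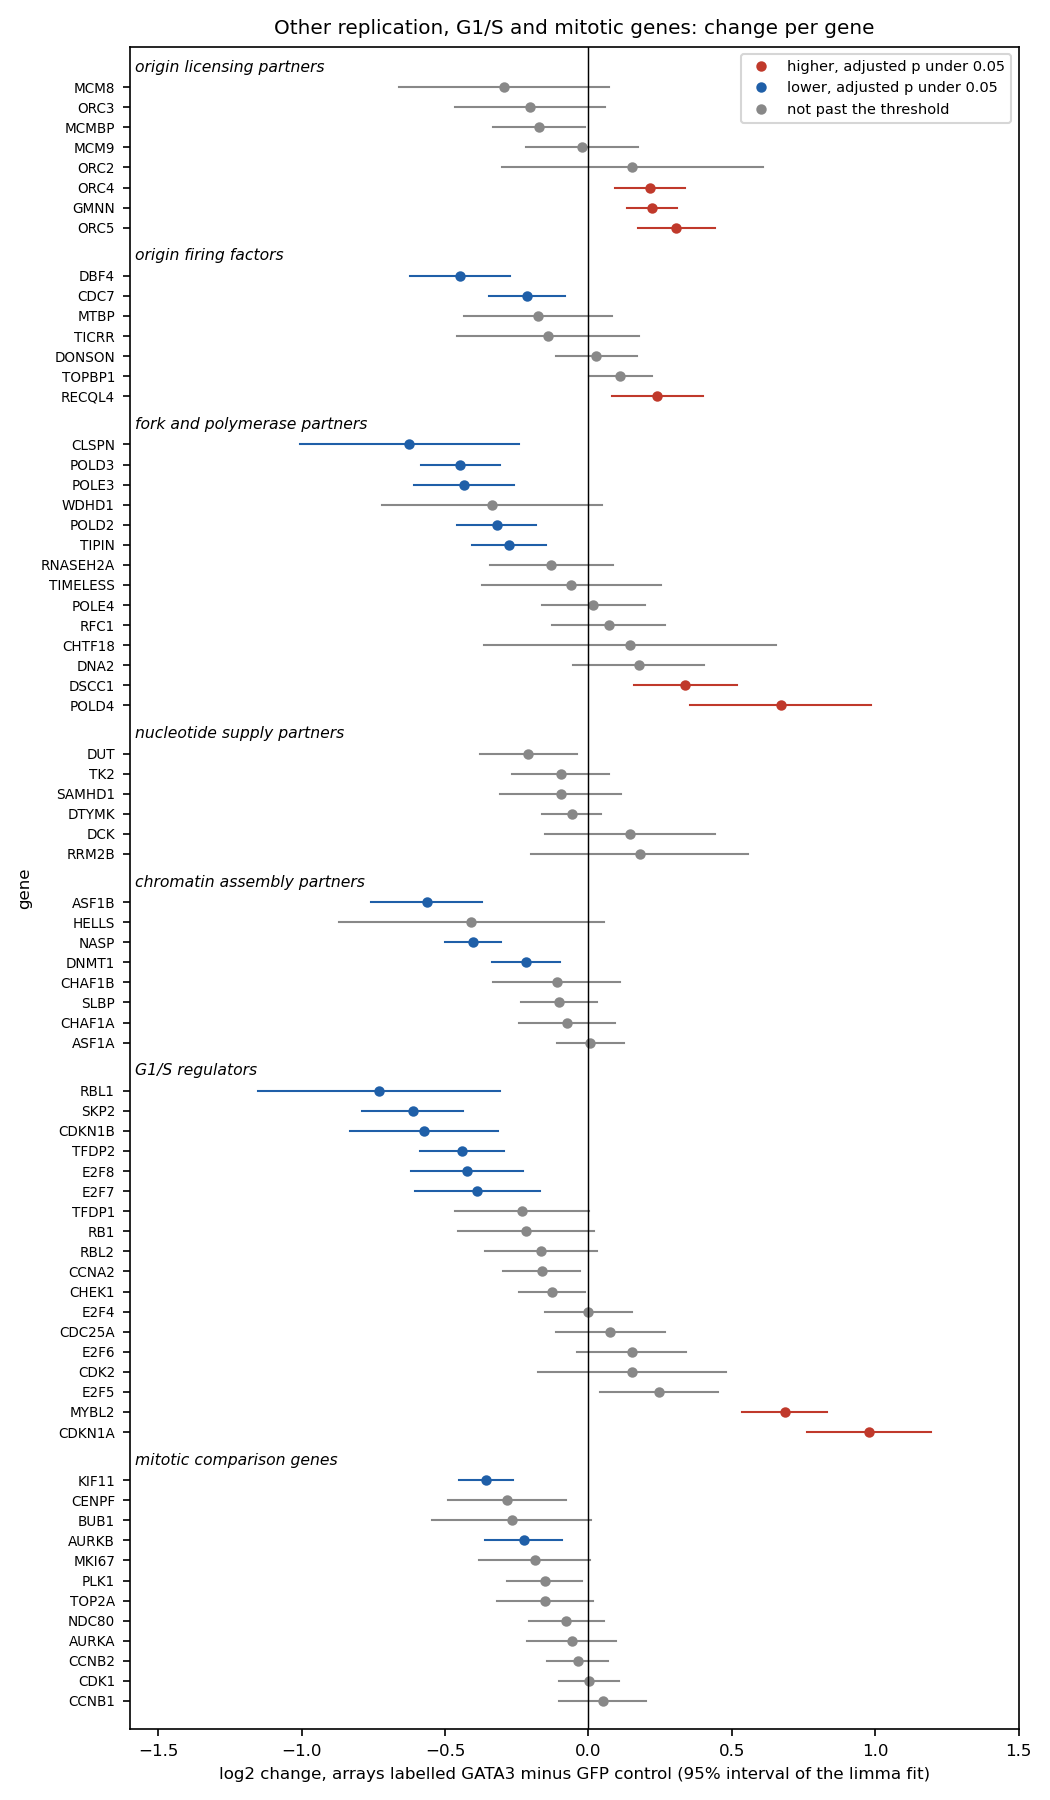
Log2 change with 95% interval for 61 further replication and G1/S genes and 12 mitotic genes (x axis, arrays labelled GATA3 minus GFP control), grouped by list. CDKN1A (0.98) has the largest rise and RBL1 (-0.73) the largest fall. Of the mitotic genes, KIF11 and AURKB fell (16.7%, beside 14.5% of all tested genes).

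Mitotic genes, the nearest neighbours of this group in the cell cycle, gave 2 falls among 12, KIF11 (-0.36) and AURKB (-0.23), and no rise. That is 16.7% lower, near the 14.5% called lower over all tested genes, of which 14.8% were called higher. The mitotic median was -0.15, against -0.11 over the members and -0.02 over all tested genes. Of the 12 changes 10 were negative. All 3 arrays labelled GATA3 lay below all GFP control arrays in 7 of the 12 and above them in 0. The same held for 27.2% and 22.2% of all tested genes. MKI67, a common marker of cycling cells, changed by -0.19 (limma, adjusted p 0.139). CCNB1, the larger of the 2 positive changes, changed by 0.05. The difference between the replication and the mitotic genes was not tested.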

How the data were processed

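Biotin-labelled total RNA from MDA-MB-231 was measured on 6 single-colour Affymetrix arrays, 3 per group, and groups and replicate numbers come from the sample titles. The authors made the deposited log2 values with GCRMA, per the submitters' processing notes; its version and the scale are not given in the sources used here, and log2 is read from their range. Many probe sets stand at a common floor. Precision is limited by the small number of arrays, and no further scaling was applied. The 62 control probe sets were left out, and 23785 probe sets over 4 in at least 3 of 6 arrays were tested with limma (version 3.58.1, R 4.3.3; lmFit and eBayes with an intensity trend, no covariates), with Benjamini-Hochberg adjustment over all of them at 0.05. Intervals are 95% intervals of that fit. Symbols came from the platform annotation, and the brightest tested probe set (mean over 6 arrays) stood for each gene, which left 10814 genes. A suffix such as _s_at or _x_at marks probes that can match other transcripts. Fold changes are 2 to the power of the log2 change.

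The members and lists were chosen with earlier results of these data known. Members past the threshold, PCNA, the E2F genes and the cyclin E genes are given on every array; CDT1, GINS4, MCM2, LIG1 and RFC5 were added after their values were seen, as were POLD2, CDKN1B, E2F4 and the named mitotic genes. Of each further list up to 2 genes per direction with the largest called change are named. The alternatives were other filters, scalings, probe set choices, variance models, array weights, a replicate block and each array left out. The fit was tested on simulated data.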

Additional observations from a re-analysis of the deposited data

How the results depend on the processing

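The numbers of members called moved with the processing. None of the members called in the main fit changed direction where measured. Leaving out an array, or changing the filter or the variance model, could not have turned a direction. Members higher numbered 3 and became 5 with cyclic loess or array weights. In those 2 fits 19.4% and 22.2% of all genes were called higher, in place of 14.8%. Members lower numbered 11 and became 4 with no filter on low values and 6 with median centring. In those fits 4.57% and 12.9% of all genes were called lower. With 1 array left out, members lower ranged from 4 to 10, and the share of all genes called lower from 8.42% to 16.5%. The members' median was -0.0563 with cyclic loess and -0.0287 with median centring, in place of -0.107. The median over all tested genes moved up as well, to 0.0355 and 0.0598 in place of -0.0183. The members thus stayed below all genes by about as much. For the further replication genes, the 8 higher became 4 with no filter and 3 with the suffix _at alone (fewer genes tested). With 1 array left out they ranged from 4 to 11. The share of all genes called higher was 5.61% and 13.9% in the first 2 fits, and 9.98% to 19.0% with 1 array left out. Their 16 lower became 9 with no filter, and ranged from 9 to 15 with 1 array left out, beside the shares of all genes called lower given above. Over all probe sets 2698 were higher and 3329 lower. Higher became 1506 with the suffix _at alone (fewer probe sets counted) and 4264 with array weights, and ranged from 1796 to 3581 with 1 array left out. Lower became 1767 with no filter, 1914 with the suffix _at alone and 5123 with array weights, and ranged from 1801 to 3752. E2F1 turned from 0.01 to -0.30 with the mean of its probe sets. With the replicate number as a block (replicate block), 9 members were lower and 2 higher, and MCM3, MCM10, POLA1, POLE2 and FEN1 missed the threshold. Of the further genes 9 were lower, and of all probe sets 2106. In that fit 9.52% of all genes were called lower and 11.1% higher. The sample titles number the replicates and state no pairing between groups. Deviations of same-numbered arrays correlated at -0.13, 0.16 and -0.11, and 2 of 6 arrays correlated best with their own number. With 3 arrays per group these correlations depend on each other, so they cannot decide whether same-numbered arrays were paired.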
